A study of Ginkgo biloba with 15 samples.

Results

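The miRNA names of the miR2950 and miR11534 families were followed in embryos of Ginkgo biloba, a gymnosperm tree, over 3 collection months. All names in the small-RNA table that hold miR2950 or miR11534 were taken, which gave 3 of the 361 names: pab-miR2950a, vvi-miR2950-5p and pab-miR11534. Both families had been selected on their counts in these same libraries, which were lower in February than in September, so their values in that comparison are a description and carry no test.

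Embryos came from healthy trees grown outdoors at Yangzhou University, in September and November of 2015 and in February of 2016, and the labels name no treatment. Each month had 3 small-RNA libraries, numbered 1 to 3 in their titles. Neither separate trees, an age, a cultivar nor a pooling of embryos is stated for them, so p-values measure only how these libraries vary, and that variation may be technical. The table holds miRNA names only, so the labelled tissue could not be checked against markers.

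Plant miRNAs are cut as a short duplex from the stem of a hairpin transcript, and 1 strand guides an Argonaute protein to transcripts of complementary sequence. The suffix 5p says that a mature miRNA lies on the 5′ arm of its hairpin, and 3p on the 3′ arm. The first letters of a name give the plant in which the sequence was catalogued, pab for Norway spruce (a conifer) and vvi for grapevine (a flowering plant). A count under such a name is a count of ginkgo reads assigned to that catalogued sequence. The sequences of these miRNAs, their ginkgo hairpins and their targets were not analysed here.

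The 9 libraries held 90008 to 1269029 counts under miRNA names, the fewest in November 2 and February 3. The scaling factors of edgeR ranged from 0.768 to 1.60. Libraries with the same number deviated together from their month's mean, with correlations across names of 0.366 to 0.901 in all 9 such pairs. Between other numbers the correlations were −0.842 to 0.799, and February 2 was closer to September 1 (0.799) and November 1 (0.711) than to September 2 (0.461) and November 2 (0.366). The libraries numbered 3 stood apart from the others for the miR2950 names. Results are therefore also given pair by pair of library number. Of the 361 names, 149 shared all 9 counts with another name, but none of the 3 members did, and all 3 passed the minimum of 10 counts in 3 libraries that 145 names passed.

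The 2 miR2950 names were catalogued as pab-miR2950a, with no arm in its name, and vvi-miR2950-5p, from the 5′ arm. No name for a 3p arm of miR2950 was listed, so the arms could not be compared. The single miR11534 name carries no arm. Their counts differed in every library, but the files do not say whether a read could be assigned to both miR2950 names, so the sum of both may count some reads more than once.

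pab-miR2950a held the larger counts of the 2 miR2950 names in 9 of 9 libraries. Its share of all miRNA counts was 1.31% in September 1, 2.72% in September 2 and 0.475% in September 3. In November the shares were 0.878%, 1.85% and 0.119%, and in February 0.784%, 0.733% and 0.143%, in the order of the numbers. The libraries numbered 3 were the lowest in every month, and the 3 months overlapped. Mean shares (SD, n = 3) were 1.50% ± 1.14 for September, 0.948% ± 0.866 for November and 0.553% ± 0.357 for February. Without library 2 the mean was 0.893% in September and 0.499% in November. In whole embryos, fewer cells that hold a miRNA and less of it per cell cannot be told apart. A share of counts can also fall because other names rise, so a lower share need not be a loss of the miRNA. Which of these applied was not tested. Among the distinct rows of counts, pab-miR2950a ranked 9th by count in September 2, its highest place, and 64th in February 3, its lowest.

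vvi-miR2950-5p had shares of 1.10%, 1.72% and 0.278% in September 1, 2 and 3. It stood at 0.676%, 0.800% and 0.0748% in November and at 0.386%, 0.302% and 0.0395% in February. Both February libraries numbered 1 and 2 lay below every library numbered 1 or 2 of the earlier months, while the libraries numbered 3 were again the lowest of each month, so that the months overlapped. The mean share was 1.03% ± 0.723, 0.517% ± 0.388 and 0.242% ± 0.181 from September to February (SD, n = 3). The value of February 3 rests on 59 counts, with an exact binomial 95% interval of 0.0301% to 0.0510%, which covers counting error only. The intervals of the other 8 libraries were narrower relative to their shares.

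pab-miR11534 differed less between library numbers than the miR2950 names. Its share was 0.878%, 1.44% and 0.977% in September 1, 2 and 3, then 0.943%, 1.45% and 0.631% in November, and 0.298%, 0.447% and 0.395% in February. All 3 February libraries lay below every library of the earlier months, and September and November overlapped. Its mean share (SD, n = 3) was 1.10% ± 0.302 for September, 1.01% ± 0.416 for November and 0.380% ± 0.0755 for February. By share library 3 was the lowest of its month in November alone. With TMM scaling, which divides by a factor that differs between libraries, it was the lowest in all 3 months, at 10912 CPM beside 11429 and 11571 in September, 7497 beside 12159 and 9071 in November and 2788 beside 3512 and 4823 in February. Its rank among distinct rows varied little, from 22nd to 37th by count.

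**Figure D1:**
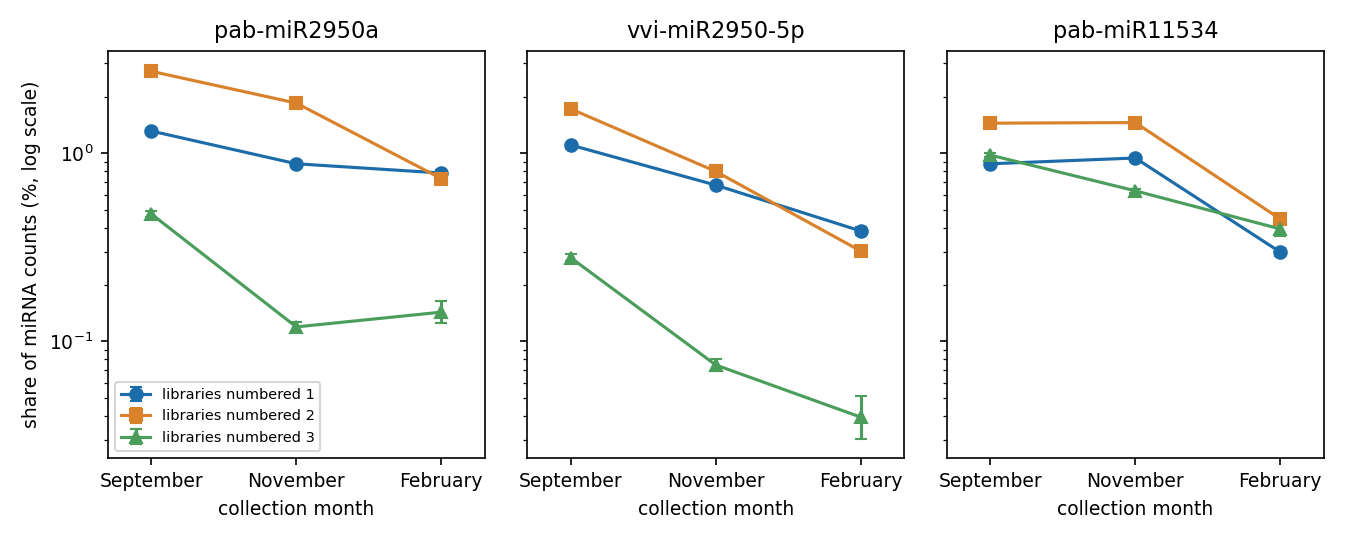
Share of all miRNA counts (percent, log scale) of the 3 names by collection month, with a line for each library number and exact binomial 95% intervals as bars. The libraries numbered 3 sit lowest for both miR2950 names in every month, and the February values of pab-miR11534, 0.298% to 0.447%, lie below its values in both other months.

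Between September and November the 2 miR2950 names were lower in each of the 3 pairs of library number, and pab-miR11534 in 1 of them. For pab-miR2950a, the November share was 67.0% of the September share in pair 1, 67.8% in pair 2 and 25.1% in pair 3. For vvi-miR2950-5p it was 61.2%, 46.5% and 26.9%. For pab-miR11534 it was 107%, 101% and 64.6%, and with TMM scaling pair 2 turned lower, by a log2 difference of −0.35. Being lower in 3 of 3 pairs was common, since 15.9% of the 145 names tested were so by share, and pair 3 showed the largest change for all 3 members. As a log2 difference with TMM scaling, the 3 pairs averaged −1.33 ± 0.552 for vvi-miR2950-5p, −1.14 ± 0.682 for pab-miR2950a and −0.27 ± 0.323 for pab-miR11534 (SD, n = 3 pairs), so that for both miR2950 names the mean was larger than the spread between pairs.

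None of these November differences passed the threshold, an adjusted p of 0.05. On the log2 scale the fitted difference was −1.10 (SE 1.13, edgeR adjusted p = 0.997) for vvi-miR2950-5p, −0.87 (SE 1.02, edgeR adjusted p = 0.997) for pab-miR2950a and −0.24 (SE 0.47, edgeR adjusted p = 0.997) for pab-miR11534. With library number as a replicate block the errors of the miR2950 names were smaller, at −1.37 (SE 0.48, edgeR adjusted p = 0.792) for vvi-miR2950-5p and −1.18 (SE 0.46, edgeR adjusted p = 0.812) for pab-miR2950a. Without the libraries numbered 3 the miR2950 names differed by less but with smaller errors, at −0.89 (SE 0.40, edgeR adjusted p = 0.83) and −0.54 (SE 0.45, edgeR adjusted p = 0.908), and pab-miR11534 turned to 0.07 (SE 0.41, edgeR adjusted p = 0.932). edgeR called 0 of the 145 names (0%) with or without the block, with 2 and 5 names at an unadjusted p under 0.05, and DESeq2 called 0 as well, with 7 such names. The September libraries of this step were also used when the families were selected, so these p-values are not independent of that choice. Over all names tested the median log2 fold change was 0.20 with TMM and −0.13 with upper quartile scaling, and the 3 members were below it under both.

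**Figure D2:**
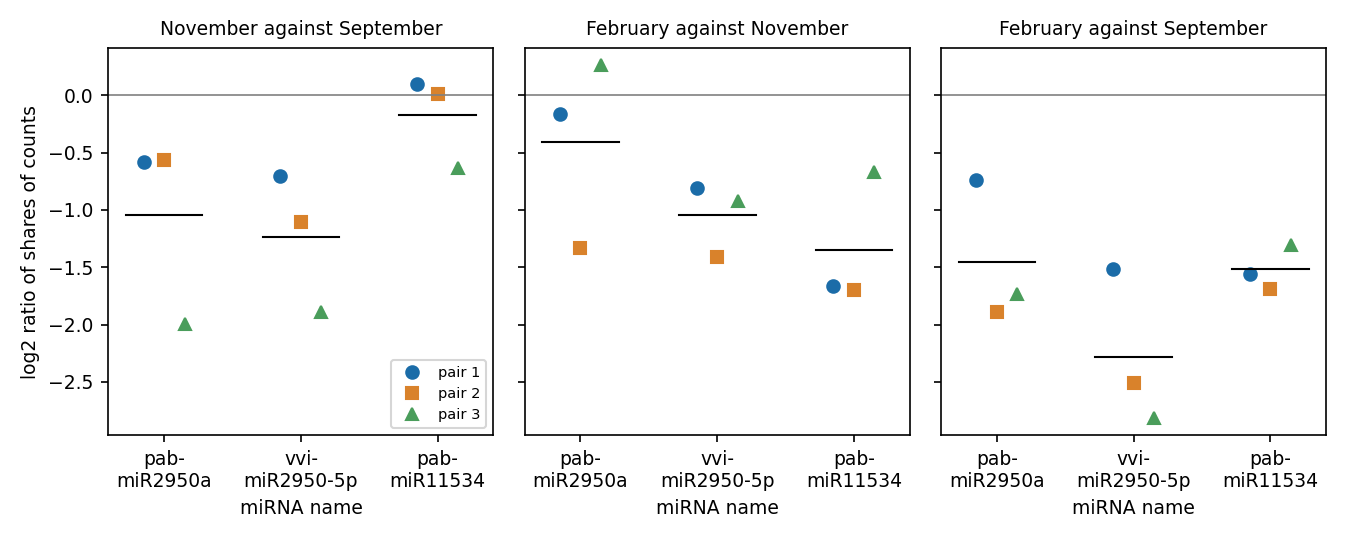
Log2 ratio of the shares of counts between 2 months for each pair of libraries with the same number, for the 3 names; black lines are the means of the 3 pairs and the grey line marks no difference. Both miR2950 names were below 0 in all November pairs, whereas pab-miR11534 was near 0 in pairs 1 and 2 there and at −1.66 and −1.70 in the same pairs from November to February.

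Between November and February pab-miR11534 showed the lowest of the 3 fitted fold changes, where it had shown the highest in the step before. Its February share was 31.6% of the November share in pair 1, 30.7% in pair 2 and 62.7% in pair 3. The shares did not overlap between the months, which held for 4.83% of the names tested in this direction, and a lower share in 3 of 3 pairs held for 22.8%. vvi-miR2950-5p was also lower in 3 of 3 pairs, at 57.0%, 37.7% and 52.9% of the November share. pab-miR2950a stood at 89.3% and 39.7% in pairs 1 and 2 and at 120% in pair 3, where TMM scaling gave a lower value, by a log2 difference of −0.49. With TMM scaling the pairs averaged −1.38 ± 0.442 for pab-miR11534, −1.07 ± 0.534 for vvi-miR2950-5p and −0.44 ± 0.131 for pab-miR2950a on the log2 scale (SD, n = 3 pairs), each larger than its spread. By share the pairs of pab-miR2950a averaged −0.41 ± 0.826, which was within their spread.

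The fitted log2 difference from November to February was −1.37 (SE 0.48, edgeR adjusted p = 0.798) for pab-miR11534, −0.85 (SE 1.12, edgeR adjusted p = 0.983) for vvi-miR2950-5p and −0.42 (SE 1.01, edgeR adjusted p = 0.983) for pab-miR2950a. With the replicate block the value of pab-miR11534 was −1.38 (SE 0.43, edgeR adjusted p = 0.218). With the block and the libraries numbered 3 left out, 12 of the 114 names tested were called. That was the one setting in which a member passed, at −1.65 (SE 0.485, edgeR adjusted p = 0.0114) for pab-miR11534. Its adjusted p over the other alternatives was 0.0628 to 1. edgeR called 0 of 145 names (0%), with 5 at an unadjusted p under 0.05, while DESeq2 called 4 (2.76%), none of them a member. Without February 3 the difference of pab-miR2950a was 0.06, and without February 2 under the block 0.105, so its direction rested on single libraries. The February libraries had also been used when the families were selected.

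Across the whole interval from September to February, the comparison on which the families had been selected, all 3 names were lower in 3 of 3 pairs. This held for 24.8% of the names tested. Shares without overlap between the months were seen for 1 of the 3, pab-miR11534, and for 6.9% of the names tested. The February share of vvi-miR2950-5p was 34.9%, 17.6% and 14.2% of the September share in pairs 1, 2 and 3. That of pab-miR2950a was 59.8%, 26.9% and 30.0%, and that of pab-miR11534 33.9%, 30.9% and 40.5%. The pairs of pab-miR11534 lay closest together, with a mean log2 ratio of shares of −1.52 ± 0.198, against −1.46 ± 0.625 for pab-miR2950a and −2.28 ± 0.677 for vvi-miR2950-5p (SD, n = 3 pairs).

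The fitted log2 fold change over that interval was −1.95 (SE 1.15) for vvi-miR2950-5p, −1.61 (SE 0.48) for pab-miR11534 and −1.28 (SE 1.02) for pab-miR2950a, beside a median of 0.03 over all 145 names. With the replicate block the values were −2.39 (SE 0.50), −1.64 (SE 0.43) and −1.61 (SE 0.47). The block made little difference to pab-miR11534 and reduced the errors of both miR2950 names, whose level differed most by library number. Without the libraries numbered 3 and without the block, the values were −1.95 (SE 0.41) for vvi-miR2950-5p, −1.57 (SE 0.42) for pab-miR11534 and −1.30 (SE 0.46) for pab-miR2950a, close to those from all libraries and with smaller errors for the miR2950 names. Of the 3 members, 0 were called by edgeR, for which the share of all names called was 0%, with 7 names at an unadjusted p under 0.05. With the block 1 was called, vvi-miR2950-5p (3.45% of all names), and with DESeq2 and the block all 3 (14.5% of all names). Nothing is read from these counts, since this comparison chose the members.

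**Figure D3:**
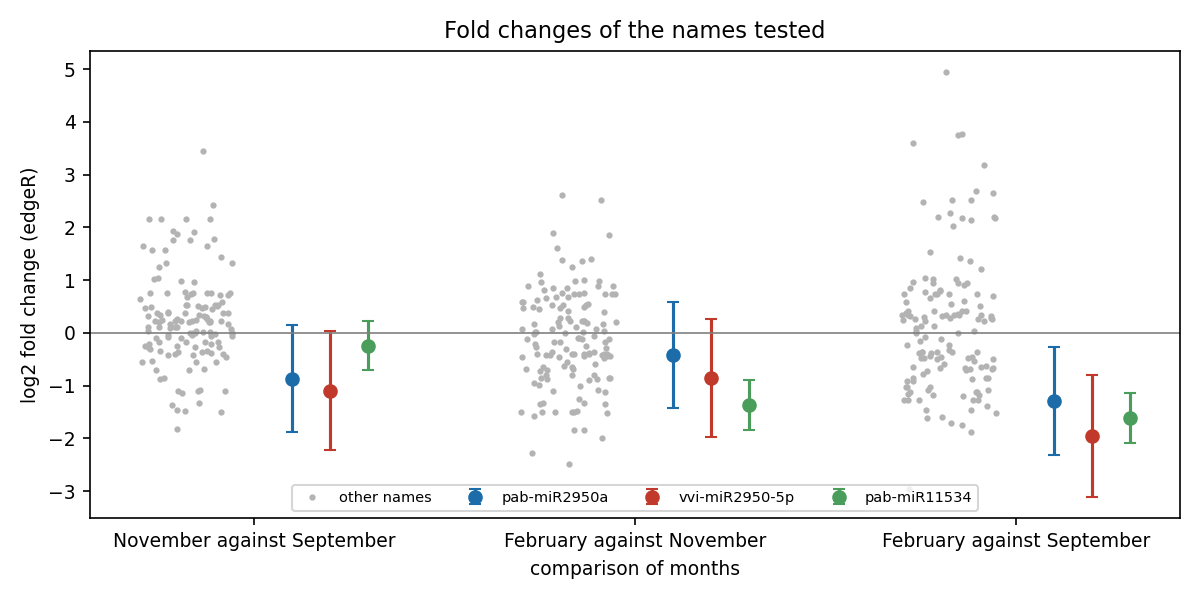
Fitted log2 fold changes from edgeR without a block for the 145 names tested (grey points) and for the 3 members (coloured points, bars show 1 SE) in each comparison of months. The members lie below 0 in each comparison, from −0.24 for pab-miR11534 in November against September to −1.95 for vvi-miR2950-5p in February against September, all within the range of the other names.

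Within a library the 2 miR2950 names did not keep a constant proportion. vvi-miR2950-5p made up 45.7%, 38.7% and 36.9% of the counts of both names in September 1, 2 and 3. It made up 43.5%, 30.2% and 38.6% in November and 33.0%, 29.2% and 21.7% in February. The exact binomial interval of February 3, 16.9% to 27.1% of 272 counts, was the widest. All September libraries were above all February libraries, and the November libraries overlapped both. The means (SD, n = 3) were 40.4% ± 4.67 for September, 37.4% ± 6.71 for November and 27.9% ± 5.74 for February. This proportion does not depend on library scaling, but it comes from the libraries on which the families were selected, and it was not tested.

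The proportion of pab-miR11534 to pab-miR2950a was highest in the libraries numbered 3 and, within each number, in November. In the libraries numbered 3 there were 2.06 counts of pab-miR11534 per count of pab-miR2950a in September, 5.29 in November and 2.77 in February. In the libraries numbered 1 the values were 0.670, 1.07 and 0.380, and in those numbered 2 they were 0.530, 0.788 and 0.609. The 3 libraries numbered 3 were above all 6 others, while the values of numbers 1 and 2 overlapped. What the numbers stand for is not stated, and their part in the values was not tested.

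**Figure D4:**
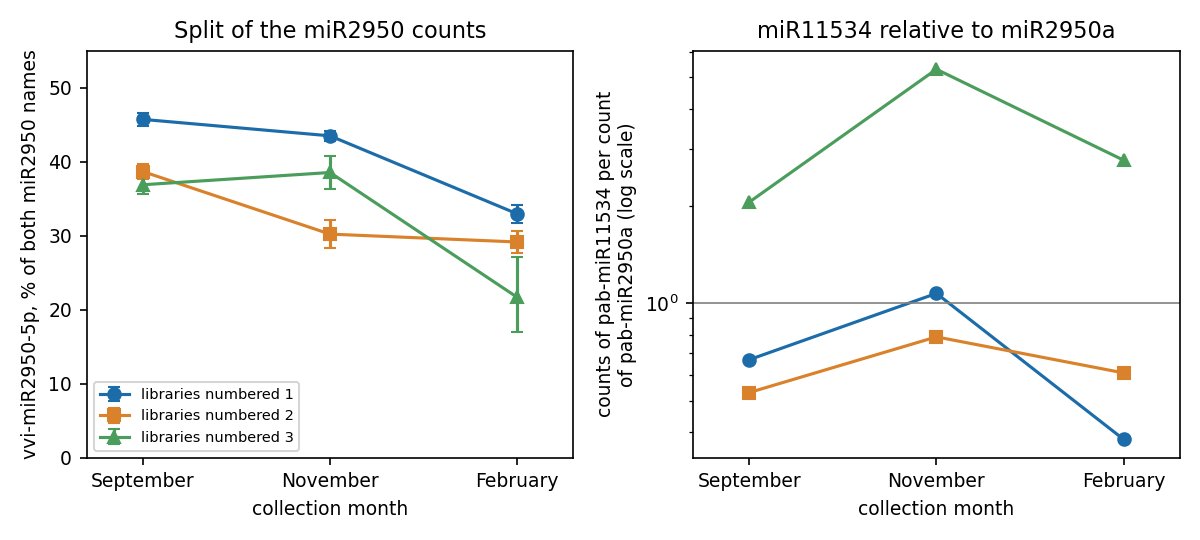
Left, vvi-miR2950-5p as a percent of the counts of both miR2950 names, with exact binomial 95% intervals; right, counts of pab-miR11534 per count of pab-miR2950a on a log scale, both by month with a line for each library number. On the left the February libraries, 21.7% to 33.0%, lie below the September libraries, and on the right the libraries numbered 3 lie at 2.06 to 5.29, above all others.

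Likeness of pattern to other names was measured as the Pearson correlation of TMM-scaled log2 CPM over the 9 libraries, which share their scaling factors and are not independent where they share a number. Over all 9 libraries pab-miR2950a and vvi-miR2950-5p were most like each other, at 0.974. Over the 6 libraries numbered 1 and 2 they were at 0.926, and mtr-miR319a-3p was closer to both, at 0.945 and 0.930. Over all 9, pab-miR11534 was at 0.694 with vvi-miR2950-5p and at 0.573 with pab-miR2950a. Outside the families, pab-miR11534 was most like ppt-miR319a (0.917), ath-miR319a (0.717) and osa-miR159c (0.687). miR319 targets TCP transcription factor transcripts and miR159 MYB transcripts in other plants. ppt-miR319a, catalogued in a moss, had shares of 4.75%, 8.16% and 5.17% in September, 3.50%, 12.2% and 1.07% in November and 0.869%, 0.813% and 0.676% in February, and like pab-miR11534 it was lowest in the 3 February libraries.

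Outside the families, zma-miR162-3p and ath-miR162a-3p were among the 3 rows most like each miR2950 name. They stood at 0.896 for pab-miR2950a and 0.907 for vvi-miR2950-5p. Their counts differed by at most 3 in a library, so they were close to 1 row. Both were also lowest in the libraries numbered 3 in each month. miR162 targets the DICER-LIKE1 transcript in Arabidopsis. The predicted name novel_24 was at 0.900 with pab-miR2950a and sly-miR482a at 0.841 with vvi-miR2950-5p, but both had few counts, with 3 to 55 and 0 to 28 per library. From September to February the share of ath-miR162a-3p went from 2.04% to 2.19% in pair 1, from 2.33% to 1.66% in pair 2 and from 0.699% to 0.243% in pair 3. Over the 6 libraries numbered 1 and 2 the names most like changed for all 3 members, to mtr-miR319a-3p (0.945) for pab-miR2950a, ath-miR319a (0.940) for vvi-miR2950-5p and gma-miR319c with gma-miR319q (0.944 each) for pab-miR11534. These were the highest of 129 rows, whose medians were 0.04, −0.059 and 0.052 in that order. In the libraries left out the pattern differed. By share mtr-miR319a-3p was highest of its month in November 3 (3.73%) and February 3 (1.54%), where both miR2950 names were lowest. gma-miR319c stood at 1.55%, 2.01% and 0.967% in the libraries numbered 3, its highest of each month.

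Names catalogued in the same plants gave a background for the members. Of 40 names with a conifer prefix, 15 were tested, the 2 pab members among them, and edgeR without the block called 0 in each of the 3 comparisons. From September to November 8 of these 15 were negative and 7 positive, beside 54 and 91 of all 145 names. From November to February 11 were negative and 4 positive, beside 81 and 64. From September to February, the comparison that chose the members, 11 of the 15 had a negative and 4 a positive fold change. Both pab members were among the negative ones. Of all 145 names, 71 were negative and 74 positive there. The median was −0.37 for the 15 beside 0.03 over all names tested. Of 14 grapevine names, 6 were tested, with vvi-miR2950-5p among them. In the same comparison without the block 4 were negative and 2 positive, with a median of −0.39. With the block 5 were negative and 1 positive, with a median of −0.45 beside −0.11 over all names tested in that fit. Of all those names 77 were negative and 68 positive. The 1 grapevine name called was vvi-miR2950-5p. That comparison chose this member, so nothing is read from its call.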

How the data were processed

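The values used were the raw read counts that the authors deposited for each miRNA name in 9 small-RNA libraries, not normalized, per the file headers. Bowtie, HTSeq 0.6.1, TopHat2 2.0.12 and CASAVA 1.8 appear in the submitters' processing notes, with no role given. How small-RNA reads were assigned to names, and whether 1 read can count under several, is not given in the sources used here. The deposited mRNA table was not used, since it pairs no gene with a miRNA.

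Libraries were grouped by the month in their labels. Shares are counts of a name over the sum of all names in a library. Names reaching 10 counts in 3 or more libraries were fitted with edgeR 4.0.16 (R 4.3.3; TMM factors, quasi-likelihood test, 1 coefficient per month, all 9 libraries). Standard errors were taken from the fold change and its F statistic. Benjamini-Hochberg adjustment ran over the names tested in each fit, with a threshold of 0.05. These were 145 in the main fit and 114 without the libraries numbered 3. DESeq2 1.42.0 was an alternative, which without the block gave an adjusted p for 130 of the 145 names. The fits were tested on simulated data that held no effect of library number, so that test cannot speak to the replicate block. The main fit had no replicate block, since no label states a pairing. Pairs of library number were described, and the block was fitted as an alternative, because every same-number correlation was over 0.1. Some correlations between other numbers were over 0.1 too, up to 0.799. Log2 CPM for likeness used a prior count of 2, and names with identical counts were taken as 1 row. The 3 most like rows of each member are named.

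The members and lists were chosen with earlier results of these data known. A planned comparison of 5p and 3p arms could not be made, and the proportion of the 2 miR2950 names, chosen after seeing the data, took its place. The 40 conifer names have the prefixes pab, pta, pde or cln.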

Additional observations from a re-analysis of the deposited data

How the results depend on the processing

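All 3 names were lower in February than in September in all 30 alternatives each, scaling, tool, filter, replicate block and left-out libraries included. The families had been selected on that difference in these libraries, so its direction over the alternatives is a description only. With upper quartile factors pab-miR11534 stood at −1.996, further from its main value than the spread between pairs. From September to November pab-miR11534 turned to 0.073 with the libraries numbered 3 left out, with or without the replicate block. From November to February pab-miR2950a turned to 0.063 without February 3 (range −0.985 to 0.063 over single left-out libraries) and to 0.105 with the block and without February 2, and the call of pab-miR11534 was gained (−1.65) with the block and the libraries numbered 3 left out. The cause was not tested.

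The numbers of names called depended more on the fit. From September to November 1 name was called with the block and the libraries numbered 3 left out, and 0 otherwise. From November to February 4 were called with DESeq2, 5 with DESeq2 and the block and 12 with the block and the libraries numbered 3 left out, and 0 to 7 when the block was fitted without a single library. From September to February 5 were called with DESeq2, 5 with the block, 21 with DESeq2 and the block, 2 with the block and total counts only and 26 with the block and the libraries numbered 3 left out; with a library left out 0 to 1 were called without the block and 0 to 16 with it, with 16 for February 3 and 15 for November 3. Mean shares and the proportion of the miR2950 names moved by less than 1 SD in all alternatives tried, but that SD is wide. Leaving 1 of 3 libraries out cannot move their mean by 1 SD, so nothing about stability is read from this. Without library 2 the mean share of pab-miR2950a went from 1.50% to 0.893% in September and from 0.948% to 0.499% in November. Depth limits vvi-miR2950-5p most, at 59 counts in February 3.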
